A study of Mus musculus with 8 samples.

Results

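E12.5 molar tooth germs cultured with SIS3, an inhibitor of Smad3, were set against germs of the same stage cultured with DMSO, the solvent, and the description covers every protein-coding gene of the count table. Of the 35896 genes in the count matrix, 21786 were annotated as protein-coding, and 16633 of these had enough counts to be tested. The germs came from BRE-GFP embryos, in which BMP-Smad activity drives a fluorescent reporter, so SIS3 and DMSO germs alike had this transgene. They were dissected whole, cultured in vitro and treated for 1 day. The other groups of the study, E12.5 germs with SB431542 and E13.5 germs with DMSO, took part in the filter on low counts, the normalisation and the fit, and their levels are given for a few genes. With all groups in the fit 19022 genes of any type passed the filter, against 15769 with SIS3 and DMSO alone. Each SIS3 library was prepared with TruSeq chemistry (RNA kit v2, poly(A) selection), but every DMSO library with SMARTer chemistry (Universal Low Input, random priming). Inhibitor and kit cannot be told apart, and every SIS3 value below holds both. The inhibitor's dose and the number of germs or embryos behind a library were not given in the sources used here.

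At E12.5 a molar germ is a bud of dental epithelium surrounded by condensing dental mesenchyme of neural crest origin, with vessels, nerves and, close by, the first bone of the jaw. TGF-beta and activin ligands bind paired type I and type II receptors that phosphorylate Smad2 and Smad3, which enter the nucleus with Smad4, while BMP ligands signal through Smad1, Smad5 and Smad9. SIS3 is described as blocking the phosphorylation of Smad3. Cells short of amino acids or under other stresses phosphorylate the translation factor eIF2-alpha, which lowers protein synthesis in general but raises translation of the transcription factor ATF4, and ATF4 in turn induces genes for amino acid synthesis, transport and tRNA charging.

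Both SIS3 libraries were usable on their own and were kept apart, with 5995709 counts in library 1 and 9427262 in library 2, against 30975010 in the DMSO library. The DMSO library is the sum of 2 deposited columns whose totals differed by 0.00168%. Their squared differences were 1.08 times the sampling variance over 937 genes with 1 transcript, 3.56 times over 4937 genes with 2 to 6 and 4.97 times over 2933 genes with 7 or more, against 17.6, 19.9 and 30.8 times for the SIS3 pair. The DMSO columns thus differed by about the sampling noise only for genes with 1 transcript, and were counted as 1 sample. Values are given as TMM-normalised CPM (counts scaled to a common library total) for SIS3 library 1, SIS3 library 2 and DMSO, and log2 fold changes run SIS3 over DMSO from edgeR's quasi-likelihood fit with 2 SIS3 libraries and 1 DMSO library. A gene is called higher or lower at a Benjamini-Hochberg adjusted p under 0.05 over all genes tested. The smallest level that 3 counts allow was 0.495 CPM in SIS3 library 1, 0.305 CPM in SIS3 library 2 and 0.0992 CPM in DMSO, which covers counting error only. Nothing says if separate cultures gave the SIS3 libraries, so the p-values measure the spread between these libraries, which may be technical. Dental mesenchyme genes were well detected in each library: Msx1 stood at 360 and 269 CPM in the SIS3 libraries against 483 CPM in DMSO, and Pax9 at 369 and 199 CPM in the SIS3 libraries against 372 CPM in DMSO.

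More genes were called lower than higher in the SIS3 libraries. Of the 16633 protein-coding genes tested, 127 (0.764%) were called higher and 506 (3.04%) lower, or 3.81% in either direction, and the median log2 fold change over all of them was -0.02. DESeq2 called 193 higher and 397 lower. At an unadjusted p under 0.05 there were 982 higher and 1871 lower. The calls were not equally firm: 12 of the 127 and 70 of the 506 were made under all 9 of these alternatives: DESeq2, its size factors in edgeR, no filter on low counts, a filter at a mean of 5 CPM, the SIS3 and DMSO libraries alone, GC and length trends removed, genes with little shared sequence, and each DMSO column left out. A gene that an alternative did not test counts here as not called under it. The filter at 5 CPM tested 117 of the 127 and 452 of the 506. The setting of genes with little shared sequence tested 102 of the 127 and 468 of the 506. With the SIS3 and DMSO libraries fitted alone, 50 genes were called higher and 145 lower.

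**Figure D1:**
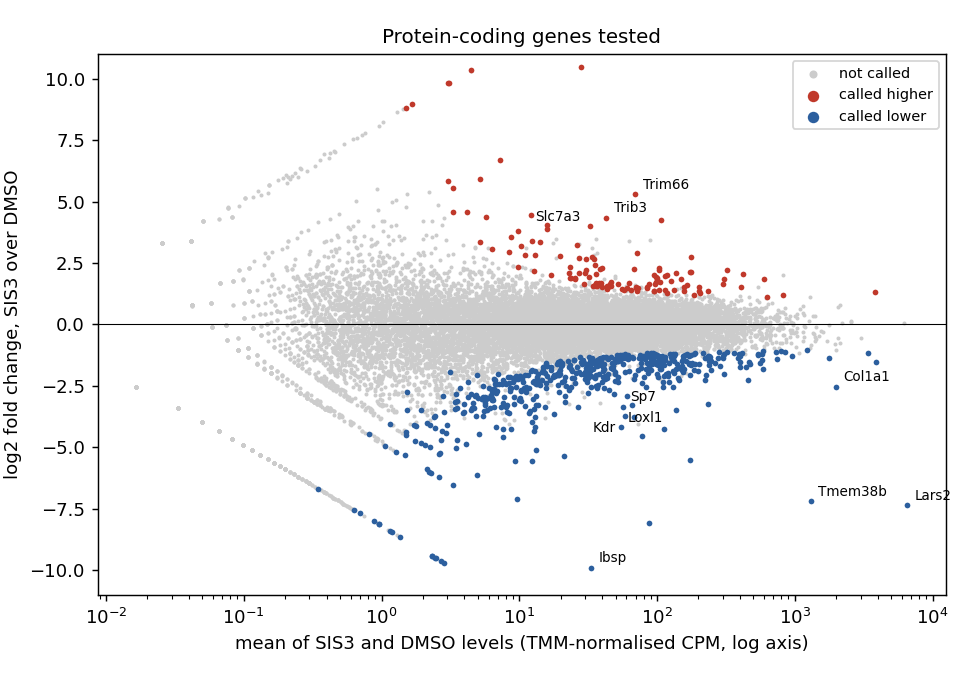
Log2 fold change, SIS3 over DMSO, of the tested protein-coding genes against the mean of their SIS3 and DMSO levels in TMM-normalised CPM on a log axis. Red points are called higher and blue points lower in edgeR's quasi-likelihood test, and 8 genes lie outside the plotted range. The blue points outnumber the red ones, and of the genes marked by name Ibsp, Lars2 and Tmem38b lie lowest and Trim66 highest.

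Many genes of the ATF4 pathway were higher in both SIS3 libraries. Of 17 regulators and direct outputs of the pathway, 8 were called higher and 0 lower, with a median log2 fold change of 1.63. Trib3 (ENSMUSG00000032715; GRCm38 chromosome 2, 152337422 to 152344032, minus strand), which encodes a pseudokinase that feeds back on ATF4, had 80.5 and 83.0 CPM in the SIS3 libraries against 4.0 CPM in DMSO, or 4.35 on the log2 scale (SE 0.45, adjusted p = 0.000118). The other SMARTer libraries lay below both SIS3 libraries for this gene. SB431542 was above E12.5 DMSO, at 7.78 CPM, and E13.5 DMSO below it, at 2.75 CPM. Sesn2 (chromosome 4, 132492032 to 132510501, minus strand), whose product senses leucine and restrains mTORC1, had 129 and 121 CPM in the SIS3 libraries against 16.9 CPM in DMSO (2.89, SE 0.36, adjusted p = 0.000622). Chac1, which encodes a glutathione-degrading enzyme, had 61.7 and 59.1 CPM in the SIS3 libraries against 9.55 CPM in DMSO (2.66, SE 0.43). For these 3 genes the SIS3 libraries lay close together and far above DMSO. Ddit3, encoding the stress factor CHOP, had 72.9 and 47.1 CPM in the SIS3 libraries against 11.1 CPM in DMSO (2.43, SE 0.45). Cebpg, a dimer partner of ATF4, had 219 and 145 CPM in the SIS3 libraries against 46.7 CPM in DMSO (1.96, SE 0.36). Atf3, Ddit4 and Ppp1r15a, which encodes the phosphatase subunit that reverses eIF2-alpha phosphorylation, also rose, by 2.33, 1.63 and 1.51 on the log2 scale. Atf4 itself did not pass, at 315 and 330 CPM in the SIS3 libraries against 145 CPM in DMSO (1.16, SE 0.30, adjusted p = 0.051). Nor did Atf5, for which the SIS3 libraries differed, at 89.2 and 238 CPM against 15.1 CPM in DMSO (3.44, SE 0.79, adjusted p = 0.142). The kinase genes stayed near 0, with Eif2ak4 (GCN2) at 0.01 and Eif2ak3 (PERK) at -0.14, neither of them called. Trib3, Sesn2 and Chac1 were called under all 9 alternatives, whereas the other 5 were not called where genes had to average at least 5 CPM.

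Enzymes and carriers that supply amino acids were higher in part. Of 16 tested genes of serine, glycine, one-carbon and other amino acid synthesis, 5 were called higher and 0 lower (median log2 fold change 1.07). Asns, encoding asparagine synthetase, had 250 and 194 CPM in the SIS3 libraries against 52.7 CPM in DMSO (2.07, SE 0.34). Aldh1l2, a mitochondrial folate enzyme gene, had 154 and 186 CPM in the SIS3 libraries against 36.7 CPM in DMSO (2.21, SE 0.34). Mthfd2 and Gpt2 rose by 1.73 and 1.63, while Phgdh, which encodes the first enzyme of serine synthesis, stood at 84.8 and 115 CPM in the SIS3 libraries against 102 CPM in DMSO (-0.03, not called). The serine pathway genes Psat1 (0.87), Psph (0.58) and Shmt2 (0.29) did not pass.

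Among 15 amino acid transporter genes 5 were called higher and 0 lower (median 0.69). Slc7a3, which encodes a carrier of arginine and lysine, had 57.1 and 65 CPM in the SIS3 libraries against 3.83 CPM in DMSO (3.99, SE 0.49, adjusted p = 0.00048). Slc3a2 and Slc7a5, which encode the subunits of the leucine carrier LAT1, rose by 2.13 and 1.51, Slc1a4 by 2.02 and Slc7a1 by 1.83. Of 20 cytosolic aminoacyl-tRNA synthetase genes 3 were called higher and 0 lower (median 0.59): Aars (1.53), Lars (1.51) and Eprs (1.14). Eprs was not called without the second DMSO column (adjusted p = 0.0511). Over these 4 groups together, 21 of 68 tested genes were called higher, against 0.764% of all tested protein-coding genes, and 5 of the 21, Trib3, Sesn2, Chac1, Aldh1l2 and Slc7a3, were called under all 9 alternatives.

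The ATF4-type element, in which an ATF half-site meets a C/EBP half-site, was looked for in the promoters of these genes because they moved together. The letters TGATGNAA were searched on both strands of the RefSeq windows of build GRCm38.p6, from 250 bases before to 50 after each gene's start. Of the 21 genes called higher in the 4 groups 16 had a window, and 6 of them (37.5%) held the letters, namely Aars, Asns, Atf3, Chac1, Slc1a4 and Trib3. Over all members of the 4 groups the count was 15 of 52 with a window (28.8%). Of all protein-coding genes called higher 14 of 88 held them (15.9%), against 9 of 380 called lower (2.37%), 419 of 12931 tested (3.24%) and 1304 of all 32851 windows (3.97%). The 14 genes include the 6 of the 4 groups. These shares describe letters in a window and were not tested. The 4 groups hold known ATF4 targets and were chosen with earlier results of these data known. Their shares thus cannot show whether ATF4 acted in the SIS3 libraries. The sequences below are the 250 bases before the start of Chac1, Asns and Atf3, textbook ATF4 targets, and the 30 bases around the match in Trib3, in Slc1a4 and in Hrk, the death gene described further on. Each runs 5′ to 3′ along the gene's strand with the match in capitals, written TTNCATCA where it lies on the other strand.
Chac1 (chr2:119350992-119351241, plus strand): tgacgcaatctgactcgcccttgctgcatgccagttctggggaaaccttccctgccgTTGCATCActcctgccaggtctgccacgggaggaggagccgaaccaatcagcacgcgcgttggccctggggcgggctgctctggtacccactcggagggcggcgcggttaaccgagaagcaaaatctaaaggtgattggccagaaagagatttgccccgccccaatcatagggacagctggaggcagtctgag
Asns (chr6:7693210-7693459, minus strand): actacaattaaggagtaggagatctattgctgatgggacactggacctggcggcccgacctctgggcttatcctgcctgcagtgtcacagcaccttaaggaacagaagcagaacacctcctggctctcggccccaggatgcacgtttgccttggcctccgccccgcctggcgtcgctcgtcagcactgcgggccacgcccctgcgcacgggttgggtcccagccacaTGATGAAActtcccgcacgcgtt
Atf3 (chr1:191183334-191183583, minus strand): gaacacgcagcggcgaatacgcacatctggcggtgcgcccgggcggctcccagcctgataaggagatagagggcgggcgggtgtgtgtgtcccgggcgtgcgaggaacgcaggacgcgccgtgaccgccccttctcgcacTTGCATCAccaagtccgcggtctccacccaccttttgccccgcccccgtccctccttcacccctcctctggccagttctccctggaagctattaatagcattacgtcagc
Trib3 (chr2:152344028-152344057, minus strand): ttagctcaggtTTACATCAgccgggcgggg
Slc1a4 (chr11:20332699-20332728, minus strand): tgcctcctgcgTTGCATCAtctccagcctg
Hrk (chr5:118169639-118169668, plus strand): cccgggccggaTGATGTAAccccctccccg
Counted from the RefSeq start, which can differ from the start in the GENCODE coordinates given for a gene and lies upstream of it for Trib3, the first base of the match lies 193 bases before the start in Chac1, 110 in Atf3, 23 in Asns and 4 in Slc1a4, and 15 bases after it in Trib3.

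Other stress programmes and pathways were counted in the same way. Of 22 genes of endoplasmic reticulum chaperones and the unfolded-protein response edgeR called 0, with a median of -0.12. At an unadjusted p under 0.05 there was 1 higher and 1 lower, and DESeq2 called 1 higher, Herpud1. Hspa5, which encodes the main chaperone of that compartment, had 629 and 477 CPM in the SIS3 libraries against 575 CPM in DMSO (-0.06, SE 0.29, 95% CI -0.68 to 0.57). Of 17 Nrf2 targets, which answer oxidative stress, edgeR and DESeq2 called 0, with 1 higher and 3 lower at an unadjusted p under 0.05 (median -0.46), and Nqo1 stood at 5.44 and 2.95 CPM in the SIS3 libraries against 8.83 CPM in DMSO. The 24 glycolysis and hypoxia genes (median -0.26), 23 cholesterol synthesis genes (median -0.16), 8 aryl hydrocarbon receptor targets (median -0.99) and 16 interferon response genes (median -0.09, or 0.05 with its 2 members at 0 counts in SIS3 taken at their bound) likewise held 0 genes called by edgeR or DESeq2. At an unadjusted p under 0.05 they held 3, 0, 0 and 0 higher and 4, 4, 2 and 0 lower. Of 23 immediate-early genes 3 were called higher, against 0.764% of all tested protein-coding genes: Nr4a1 (2.13), Btg2 (1.63), which is also in the p53 list, and Atf3, which is also in the ATF4 list, while Fos stood at 0.17 and Egr1 at 0.01.

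Targets of p53, the factor that arrests or kills cells with damaged DNA, were higher in part. Of 30 tested targets 8 were called higher and 0 lower, with a median of 0.93, against 0.764% of all tested protein-coding genes higher. Trp53inp1, a proapoptotic target, had 380 and 236 CPM in the SIS3 libraries against 45.4 CPM in DMSO (2.76, SE 0.39, adjusted p = 0.00244). Zmat3, which encodes an RNA-binding protein, had 197 and 196 CPM in the SIS3 libraries against 57.8 CPM in DMSO (1.76, SE 0.32), and Ccng1 rose by 1.90. The death genes Bbc3 (PUMA) and Pmaip1 (NOXA) rose by 3.37 and 3.34 on the log2 scale. Bbc3 differed between the SIS3 libraries, at 38.3 and 13.2 CPM against 2.48 CPM in DMSO, and was not called without the first DMSO column (adjusted p = 0.0538). Hrk (harakiri), another BH3-only death gene, had the largest increase by the naming rule, at 10.6 and 9.97 CPM in the SIS3 libraries against 0.165 CPM in DMSO (5.90, SE 1.04). Cdkn1a (p21), the arrest gene, and Mdm2, the feedback inhibitor of p53, did not pass, at 1.21 and 0.77. Sesn2 belongs to this group as well as to the ATF4 group. Of the 8 called targets 2, Trp53inp1 and Sesn2, were called under all 9 alternatives. Ccng1, Zmat3, Btg2, Bbc3, Pmaip1 and Eda2r were not called where genes had to average at least 5 CPM. Btg2, Bbc3 and Pmaip1 were also not called with the SIS3 and DMSO libraries fitted alone.

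**Figure D2:**
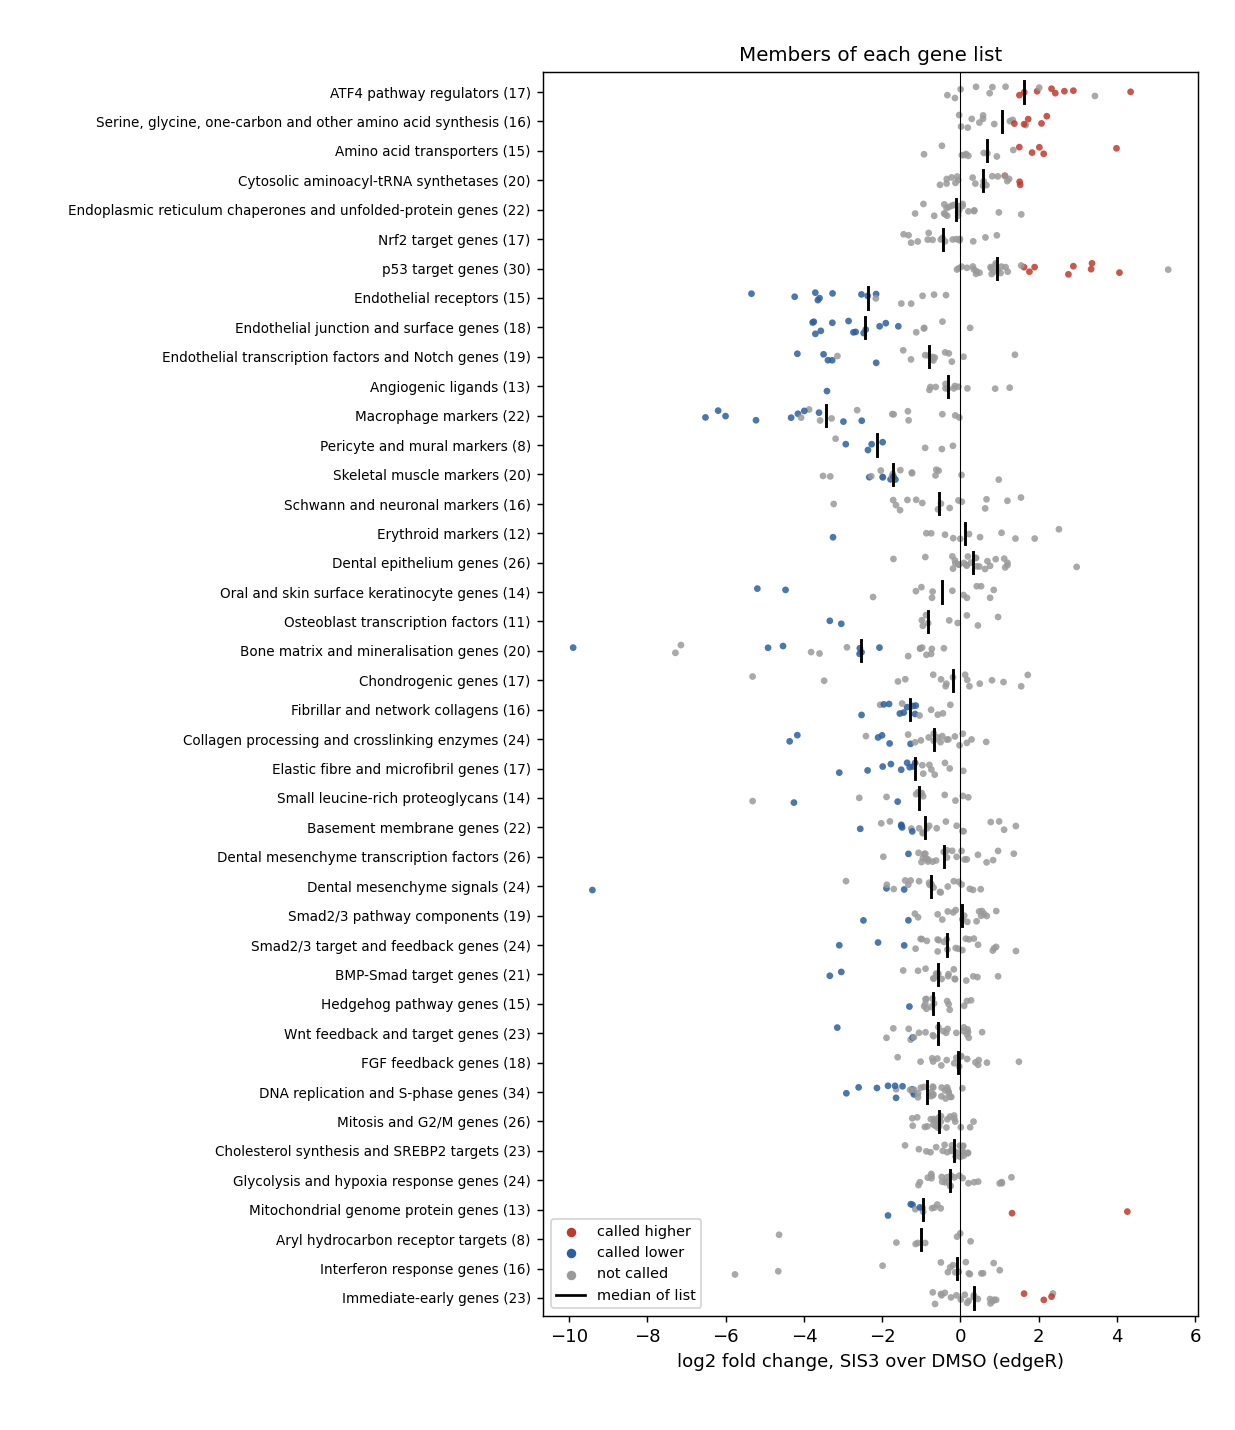
Log2 fold change, SIS3 over DMSO, of each tested member of the 42 gene lists, with the number tested in brackets after the list name. Red and blue mark members called higher and lower, grey the rest, and the black bar is the list's median. Red points appear in the amino acid, p53, immediate-early and mitochondrial genome lists. Blue points appear in most of the other lists, among them 9 of 15 endothelial receptors, 10 of 22 macrophage markers, 4 of 8 pericyte markers and 9 of 34 S-phase genes. Over all tested protein-coding genes 3.04% were called lower.

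Many endothelial genes were low in both SIS3 libraries. Of 15 tested receptor genes 9 were called lower and 0 higher (median log2 fold change -2.37), against 3.04% of all tested protein-coding genes lower. Kdr (chromosome 5, 75932827 to 75978458, minus strand), encoding the main VEGF receptor, had 8.74 and 7.94 CPM in the SIS3 libraries against 109 CPM in DMSO (-3.71, SE 0.31, adjusted p = 1.25e-05). Flt1, another VEGF receptor gene, had 1.16 and 0.916 CPM in the SIS3 libraries against 41.5 CPM in DMSO. Tek and Tie1, which encode the angiopoietin receptor and its partner, fell by 4.24 and 3.64, and Flt4, the receptor gene of lymphatic endothelium, fell by 3.60. Of 18 junction and surface genes 13 were called lower and 0 higher (median -2.44). Cdh5 (chromosome 8, 104101625 to 104144511, plus strand), encoding VE-cadherin, had 9.73 and 8.95 CPM in the SIS3 libraries against 128 CPM in DMSO (-3.78, SE 0.31, adjusted p = 1.04e-05). Cd93, Emcn, Mmrn2 and Pecam1 fell by 2.68, 3.27, 3.75 and 2.06. The exceptions included Vwf, at 18.3 and 15.1 CPM in the SIS3 libraries against 14 CPM in DMSO, and Cd34, at 38.9 and 26.6 CPM in the SIS3 libraries against 61.9 CPM in DMSO, neither of them called.

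Regulators of endothelial identity were low in part. Of 19 transcription factor and Notch genes 5 were called lower and 0 higher (median -0.81). Sox7 had 1.32 and 1.42 CPM in the SIS3 libraries against 24.9 CPM in DMSO (-4.17, SE 0.45, adjusted p = 0.000146), and Sox18 and Notch4 fell by 3.50 and 2.15. Gja4 and Gja5, which encode connexins of arterial endothelium, were near the floor in the SIS3 libraries: Gja5 had 0.495 and 0.916 CPM against 25.9 CPM in DMSO, and Gja4 had 2 and 0 counts against 573 in DMSO, a ratio of DMSO to SIS3 of 150.5 in CPM (counting interval 41.5 to 1246). Erg (-0.29), Fli1 (-0.72) and Ets1 (-0.81), ETS factor genes of endothelium and blood, did not pass. Over the 3 endothelial lists 27 of 52 tested genes were called lower, and 11 of them, Kdr, Flt1, Flt4, Tek, Tie1, Plxnd1, Cdh5, Emcn, Mmrn2, Cd93 and Sox7, under all 9 alternatives. Of 13 angiogenic ligand genes 1 was called lower, Vegfd (-3.41), and Vegfa stood at 246 and 224 CPM in the SIS3 libraries against 127 CPM in DMSO (0.89, adjusted p = 0.138). In bulk tissue fewer cells of a type and less RNA per cell cannot be told apart.

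**Figure D3:**
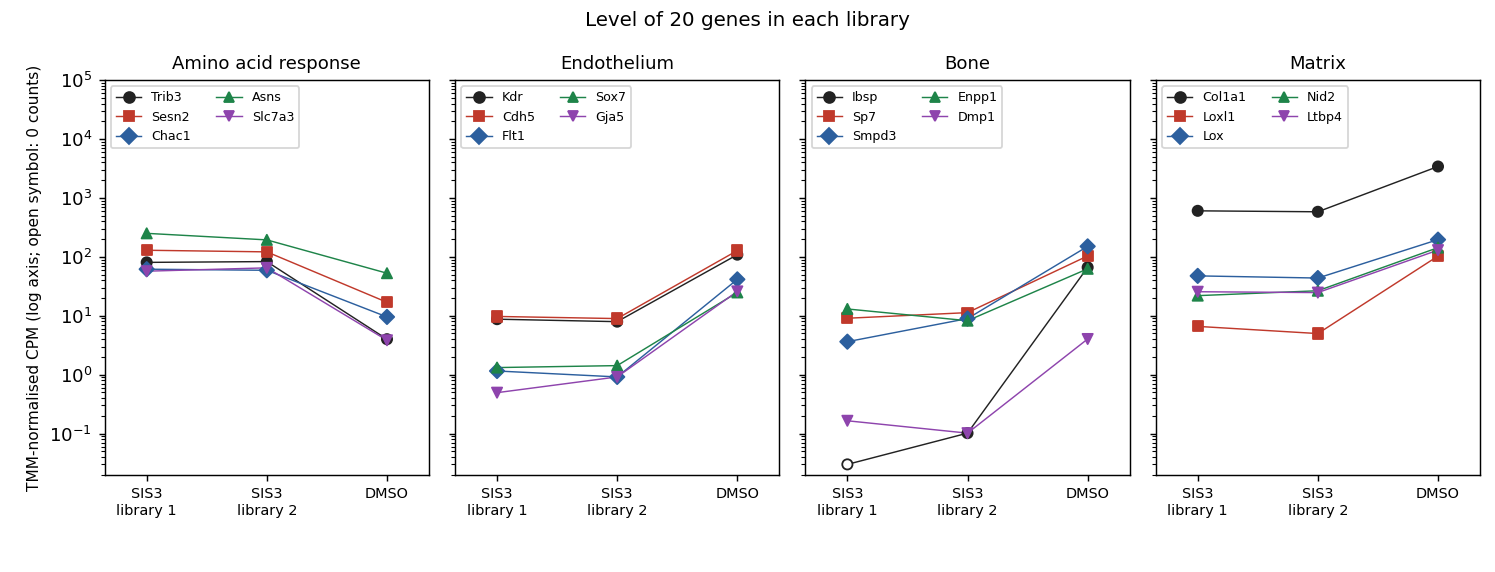
TMM-normalised CPM on a log axis of 20 genes in SIS3 library 1, SIS3 library 2 and the DMSO library, 1 line per gene, with an open symbol where the library had 0 counts. The amino acid genes lie higher in each SIS3 library than in DMSO, and the endothelial, bone and matrix genes shown lie lower in each.

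Markers of other cell types that neighbour or enter the germ were lower in part, where 3.04% of all tested protein-coding genes were called lower. Of 22 macrophage markers 10 were called lower and 0 higher (median -3.44), and the summed level of the list was 45.4 and 32.4 CPM in the SIS3 libraries against 137 CPM in DMSO. Laptm5, a leukocyte membrane gene, had 0.99 and 0.509 CPM in the SIS3 libraries against 12.8 CPM in DMSO (-4.15, SE 0.62). The complement gene C1qc had 1 and 0 counts in the SIS3 libraries against 197 in DMSO, a ratio of DMSO to SIS3 of 103.5 in CPM (counting interval 18.4 to 4108). Of 8 pericyte and mural markers 4 were called lower (median -2.13), among them Abcc9 (-2.27) and Anpep (-2.36), while Pdgfrb, which dental mesenchyme expresses too, stood at 178 and 141 CPM in the SIS3 libraries against 297.5 CPM in DMSO (-0.90, not called). Of 20 skeletal muscle markers 5 were called lower (median -1.72). Ttn, which had the smallest adjusted p of the 5, stood at 215 and 159 CPM in the SIS3 libraries against 611 CPM in DMSO (-1.71, SE 0.28). Of 16 Schwann and neuronal markers edgeR and DESeq2 called 0, with 1 lower at an unadjusted p under 0.05 (median -0.53). Of 12 erythroid markers 1 was called lower, Hba-a2, which shares most of its sequence with Hba-a1. Hba-a2 had 59.2 and 29.5 CPM in the SIS3 libraries against 421 CPM in DMSO. Hba-a1 went the other way, at 405 and 166 CPM in the SIS3 libraries against 137 CPM in DMSO (1.05, not called). An exchange of counts between these genes was not tested. The summed level of the erythroid list was 1404 and 617 CPM in the SIS3 libraries against 1103 CPM in DMSO. Of the called markers 1 of 10 for macrophages, Laptm5, was called under all 9 alternatives. None of the 4 pericyte, 5 muscle and 1 erythroid markers was. C1qc and Hba-a2 were called in each of the 8 alternatives that tested them. Abcc9, Anpep and Ttn were not called where genes had to average at least 5 CPM. Abcc9 and Anpep were also not called with the SIS3 and DMSO libraries fitted alone. The part of these cell types in the endothelial, bone and matrix values was not tested.

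Genes of bone formation were lower in part, where 3.04% of all tested protein-coding genes were called lower. Of 11 osteoblast transcription factor genes 2 were called lower, and of 20 bone matrix and mineralisation genes 7 were called lower and 0 higher. The median of the matrix list was -2.55, or -2.42 with its 2 members at 0 counts in SIS3 taken at their bound. Sp7 (chromosome 15, 102356606 to 102367182, minus strand), encoding the osteoblast factor osterix, had 9.07 and 11.3 CPM in the SIS3 libraries against 104 CPM in DMSO (-3.34, SE 0.33, adjusted p = 6.65e-05). Ibsp (chromosome 5, 104299171 to 104311469, plus strand), the bone sialoprotein gene, had 0 and 1 counts in the SIS3 libraries against 2005 in DMSO, a ratio of DMSO to SIS3 of 1053 in CPM (counting interval 189 to 41621, adjusted p = 1.33e-07). Among the SMARTer libraries Ibsp itself varied widely, with 26.5 CPM in SB431542 and 503.5 CPM in E13.5 DMSO beside 66.3 CPM in E12.5 DMSO. Smpd3, whose enzyme is needed for mineralisation, had 3.63 and 8.95 CPM in the SIS3 libraries against 150.5 CPM in DMSO (-4.53, SE 0.46). Enpp1, which encodes the enzyme that makes pyrophosphate, had 13 and 8.24 CPM in the SIS3 libraries against 62.6 CPM in DMSO (-2.57, SE 0.37). Dmp1 and Phex, genes of late osteoblasts and osteocytes, fell by 4.92 and 2.58. Runx2, which acts before Sp7 in the lineage, did not pass, at 228 and 160 CPM in the SIS3 libraries against 356 CPM in DMSO (-0.88, SE 0.30), nor did Alpl (-1.33). Dlx3 was the other called factor (-3.04, SE 0.61). Ibsp, Sp7, Smpd3, Enpp1, Sparc and Col1a1 were called under all 9 alternatives, and Dmp1, Phex and Dlx3 not with the SIS3 and DMSO libraries fitted alone.

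Each of the 5 matrix lists held called genes, all of them lower in SIS3, where 3.04% of all tested protein-coding genes were called lower. Of 16 fibrillar and network collagens 9 were called lower and 0 higher, with a median of -1.29 and all 16 log2 fold changes below 0. Col20a1, a collagen gene outside this list, was called higher, at 8.25 and 23.7 CPM in the SIS3 libraries against 1.355 CPM in DMSO (3.56, SE 0.78). It was not called without the second DMSO column (adjusted p = 0.0533). Col1a1 (chromosome 11, 94936224 to 94953042, plus strand) had 604 and 581.5 CPM in the SIS3 libraries against 3413 CPM in DMSO (-2.53, SE 0.25, adjusted p = 6.41e-05). Its partner in type I collagen, Col1a2, fell short of the threshold, at 1456 and 1701 CPM in the SIS3 libraries against 2650 CPM in DMSO (-0.75, SE 0.26, adjusted p = 0.141). The type VI chain genes Col6a1, Col6a2 and Col6a3 fell by 1.21, 1.45 and 1.36, with Col6a3 not called without the second DMSO column (adjusted p = 0.0523). Col8a2 and Col16a1 fell by 1.96 and 1.82.

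Enzymes that trim and crosslink collagen were lower in part, where 3.04% of all tested protein-coding genes were called lower. Of 24 tested, 6 were called lower and 0 higher (median -0.68): the lysyl oxidase genes Lox, Loxl1, Loxl2 and Loxl4 and the propeptidase genes Adamts2 and Adamts14. Without the second DMSO column Loxl4 (adjusted p = 0.0523) and Adamts14 (adjusted p = 0.0528) were not called, and Loxl4 not without the first either (adjusted p = 0.0522). Loxl1 (chromosome 9, 58287738 to 58313186, minus strand) had 6.60 and 4.99 CPM in the SIS3 libraries against 103 CPM in DMSO (-4.17, SE 0.33, adjusted p = 7.14e-06), Lox had 47.5 and 43.6 CPM in the SIS3 libraries against 196 CPM in DMSO (-2.10, SE 0.28), and Loxl2 fell by 1.27. The collagen chaperone gene Serpinh1 (-0.14) and the hydroxylase genes Plod1 (-0.35), Plod3 (-0.02) and P4ha1 (-0.31) did not pass. Of 17 elastic fibre and microfibril genes 9 were called lower and 0 higher (median -1.16). Ltbp4, encoding a TGF-beta-binding protein of elastic fibres, had 25.6 and 24.7 CPM in the SIS3 libraries against 130 CPM in DMSO (-2.37, SE 0.30), and Mfap2, Mfap4, Eln and Fbn1 fell by 1.98, 1.51, 1.30 and 1.21. Ltbp1, its relative, stood at 240 and 226 CPM in the SIS3 libraries against 221 CPM in DMSO (0.07).

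Small leucine-rich proteoglycans had 2 of 14 called lower (median -1.05, or -1.01 with the 1 member at 0 counts in SIS3 at its bound), Prelp (-4.25, SE 0.60) and Bgn (-1.60, SE 0.30), whereas Dcn (-0.99) and Lum (-0.95) did not pass. Of 22 basement membrane genes 5 were called lower (median -0.90). Nid2 had 21.9 and 26.6 CPM in the SIS3 libraries against 143 CPM in DMSO (-2.56, SE 0.30, adjusted p = 0.000335), and Col4a1, Col4a2 and Hspg2 fell by 1.51, 1.49 and 1.51. Laminin genes named here did not pass, with Lamb1 at -0.09, Lamb2 at 0.09 and Lamc1 at -0.60. Over the 5 matrix lists 31 of 93 tested genes were called lower, against 3.04% of all tested protein-coding genes. Of the 31, 8 were called under all 9 alternatives: Col1a1, Col8a2, Col16a1, Lox, Loxl1, Ltbp4, Prelp and Nid2.

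Genes of the Smad2/3 pathway, at which SIS3 is aimed, were mostly not called. Smad3, whose protein SIS3 acts on, had 140 and 158 CPM in the SIS3 libraries against 132 CPM in DMSO (0.18, SE 0.30, 95% CI -0.46 to 0.82), and Smad2 and Smad4 stood at 0.41 and -0.12. A level of mRNA says nothing of a protein's phosphorylation. Of 19 pathway components 2 were called lower and 0 higher (median 0.05): the ligand gene Tgfb1, at 4.78 and 6.82 CPM in the SIS3 libraries against 32.7 CPM in DMSO (-2.48, SE 0.38), and the receptor gene Tgfbr2, at 78.0 and 52.9 CPM in the SIS3 libraries against 164 CPM in DMSO (-1.33, SE 0.31). Tgfb2 (0.10) and Tgfbr1 (0.05) did not pass. Of 24 target and feedback genes 3 were called lower (median -0.34), Lox, Ltbp2 (-3.10) and Fst (-1.44). Beside the counts of these 2 lists, 3.04% of all tested protein-coding genes were called lower. The feedback genes Pmepa1 (-0.42), Skil (0.22) and Smad7 (-0.58) did not pass, and Ccn2 stood at 45.4 and 19.9 CPM in the SIS3 libraries against 47.6 CPM in DMSO.

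Genes of the BMP branch and of the other tooth signals held from 0 to 3 calls a list, where 3.04% of all tested protein-coding genes were called lower. Of 21 BMP-Smad targets 2 were called lower, Sp7 and Dlx3 (median -0.56), while Id1 (-0.31), Id2 (0.15), Id3 (-0.30) and Smad6 (-0.68) did not pass. Of 26 dental mesenchyme transcription factor genes 1 was called lower, Dlx2 (-1.33, SE 0.33), and it was not called without the second DMSO column (adjusted p = 0.0574). Barx1 (-0.96), Msx1 (-0.62), Lhx6 (-0.10) and Lhx8 (0.11) were not called. Of 24 mesenchymal signal genes 3 were called lower. Sostdc1, which encodes an antagonist of BMP and Wnt ligands, had 18.3 and 16.1 CPM in the SIS3 libraries against 63.6 CPM in DMSO (-1.89, SE 0.31) and was called under all 9 alternatives. Fgf3 had 0 counts in both SIS3 libraries against 140 in DMSO, at least 24.5-fold lower against a floor of 3 counts over both libraries. Fst, the activin antagonist gene, was not called without the second DMSO column (adjusted p = 0.0735). Bmp4 (-0.74), Inhba (-0.32) and Fgf10 (0.03) did not pass. In the Wnt list 2 of 23 were called lower, Tcf7, at 3.30 and 5.29 CPM in the SIS3 libraries against 38.6 CPM in DMSO (-3.15, SE 0.42), and Sfrp1 (-1.22), while Axin2 (-0.33) and Lef1 (0.20) did not pass. Sufu (-1.30), which restrains Gli factors, was the 1 gene called among 15 of the Hedgehog pathway, and edgeR and DESeq2 called 0 of 18 FGF feedback genes (median -0.07), with 1 higher and 4 lower at an unadjusted p under 0.05.

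Genes that replicate DNA were lower in part, and genes of mitosis differed between the SIS3 libraries. Beside the counts below, 3.04% of all tested protein-coding genes were called lower. Of 34 S-phase genes 9 were called lower and 0 higher, with medians of -0.98 in SIS3 library 1 and -0.83 in library 2 against DMSO. Ccne2, encoding cyclin E2, had 3.79 and 2.44 CPM in the SIS3 libraries against 23.2 CPM in DMSO (-2.91, SE 0.52). Rrm2, Uhrf1 and Lig1 fell by 1.67, 1.64 and 1.48 and Mcm6, a subunit of the replicative helicase, by 1.19, whereas Pcna (-0.69) and Mcm2 (-0.70) did not pass. Ccne2, Rrm2, Uhrf1, Lig1 and Mcm6 were not called where genes had to average at least 5 CPM. Of 26 mitosis genes edgeR and DESeq2 called 0, with 2 lower at an unadjusted p under 0.05. Their summed level was 2402 and 760 CPM in the SIS3 libraries against 2113 CPM in DMSO, so library 1 lay near DMSO and library 2 below it. Mki67, the proliferation marker, had 466 CPM in SIS3 library 1 and 132 CPM in SIS3 library 2, against 436 CPM in DMSO.

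That divergence was 1 of several between the SIS3 libraries. Against DMSO, 285 tested protein-coding genes were 4-fold or more higher (1.71%) and 950 lower (5.71%) in library 1, and 288 higher (1.73%) and 967 lower (5.81%) in library 2. Between the SIS3 libraries 367 genes were 4-fold or more higher in library 2 (2.21%) and 357 in library 1 (2.15%), with 1 library on either side and no test. Chondrogenic genes, of which edgeR called 0 of 17 and DESeq2 1, had a median of -1.55 in library 1 and 0.48 in library 2 against DMSO, with 1 higher and 1 lower at an unadjusted p under 0.05, and cartilage genes led the difference by the naming rule. Acan, encoding aggrecan, had 0.99 CPM in SIS3 library 1 and 35.5 CPM in SIS3 library 2, against 6.28 CPM in DMSO. Col2a1, encoding type II collagen, had 70.8 and 513 CPM in the SIS3 libraries against 207.5 CPM in DMSO. Dental epithelium genes, with 0 of 26 called by either tool or at an unadjusted p under 0.05, had a median of -0.80 in library 1 and 0.90 in library 2, and the summed level of the list was 198 and 438 CPM in the SIS3 libraries against 286 CPM in DMSO. Krt5, a basal keratin gene, had 5.77 CPM in SIS3 library 1 and 49.9 CPM in SIS3 library 2, against 31 CPM in DMSO, and Dsp, encoding desmoplakin, had 37.6 and 233.5 CPM in the SIS3 libraries against 102 CPM in DMSO. Keratinocyte genes of the oral and skin surface had medians of -1.32 in library 1 and -0.01 in library 2. Of the 14 tested 2 were called lower, against 3.04% of all tested protein-coding genes. These were Krt4, with 0 and 1 counts in the SIS3 libraries against 76 in DMSO, and Krt13, with 1 and 0 counts against 47 in DMSO. Both also varied widely among the SMARTer libraries. Krt4 stood at 0.14 CPM in SB431542 and 45.5 CPM in E13.5 DMSO beside 2.51 CPM in E12.5 DMSO. Krt13 stood at 0.456 CPM in SB431542 and 130.8 CPM in E13.5 DMSO beside 1.55 CPM in E12.5 DMSO. The low levels of both genes were thus not particular to the SIS3 libraries. The part of these list differences in the other results was not tested. The median in SIS3 libraries 1 and 2 was -2.21 and -2.55 for the endothelial receptors and -2.24 and -2.71 for bone matrix. It was -1.29 and -1.41 for the fibrillar and network collagens and 1.74 and 1.63 for the ATF4 list.

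**Figure D4:**
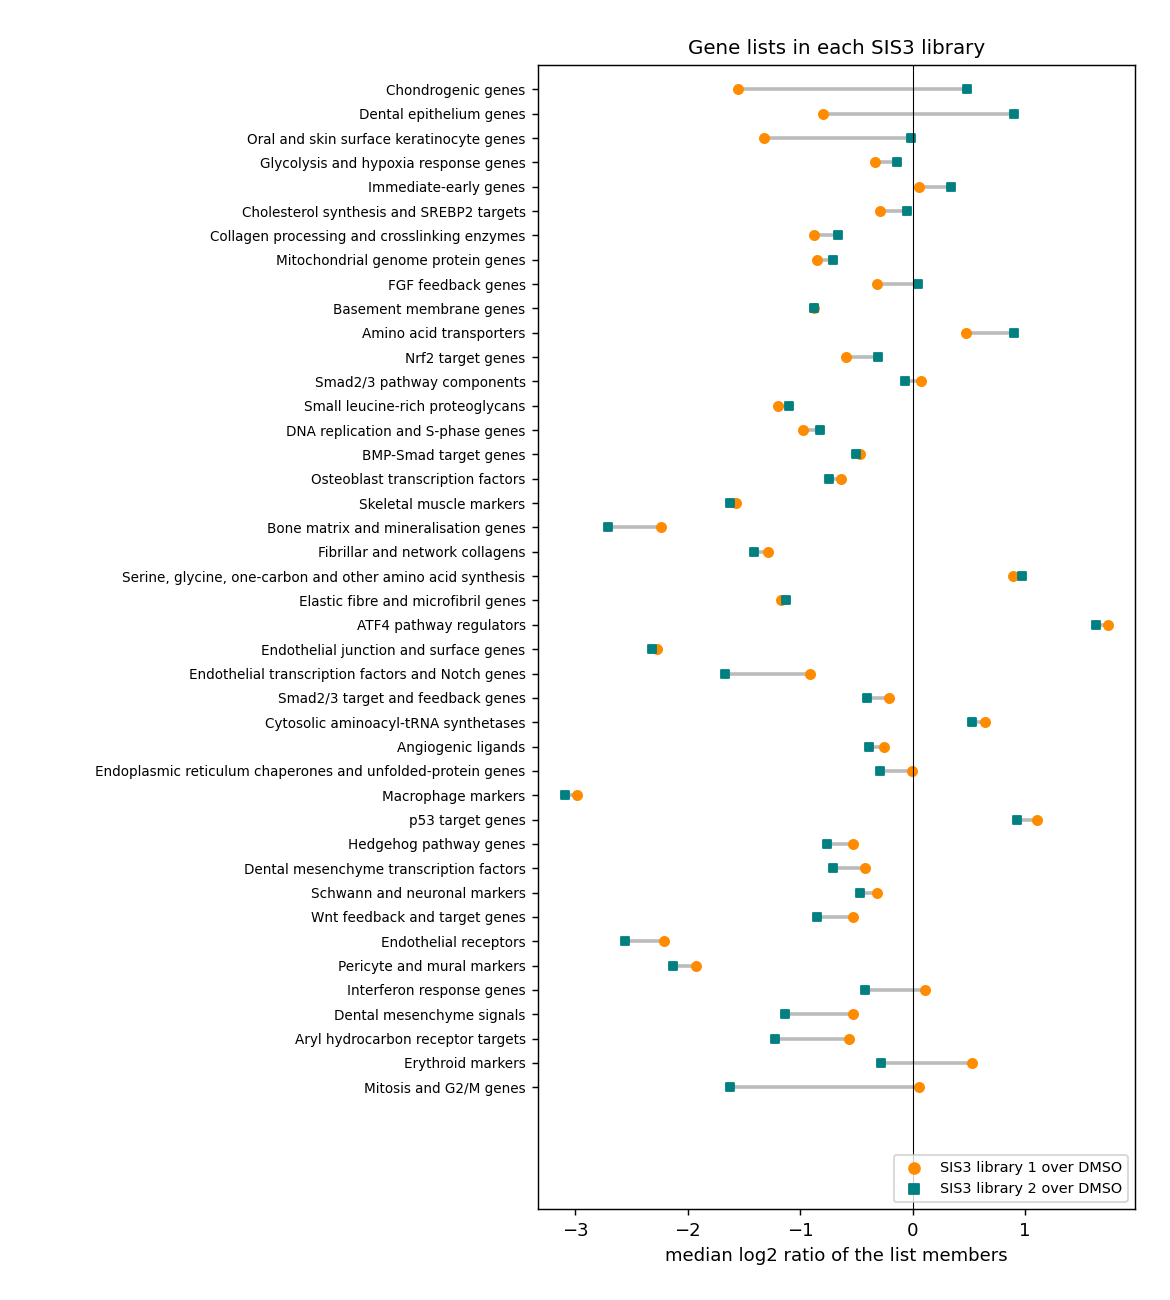
Median log2 ratio to DMSO of each gene list in SIS3 library 1 (circles) and SIS3 library 2 (squares), sorted by the median difference between the libraries. The chondrogenic, dental epithelium and keratinocyte lists at the top and the mitosis list at the bottom have the widest gaps, while the ATF4, endothelial junction and macrophage lists have narrow ones.

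Some of the largest values were of genes outside the lists. Trim66 (chromosome 7, 109449006 to 109508134, minus strand), which encodes a chromatin reader best known from the male germ line, had 136 CPM in each SIS3 library against 3.47 CPM in DMSO (5.29, SE 0.43, adjusted p = 9.69e-06), and Ctcfl, the testis paralogue of the insulator gene Ctcf, had 50.3 and 44.4 CPM in the SIS3 libraries against 5.09 CPM in DMSO (3.21, SE 0.49). Both were called under all 9 alternatives. At the other end, Lars2, which encodes a mitochondrial leucyl-tRNA synthetase, had 68.8 and 90.7 CPM in the SIS3 libraries against 13015 CPM in DMSO (-7.35, SE 0.29). Tmem38b, encoding an ion channel of the endoplasmic reticulum, had 18 and 17.4 CPM in the SIS3 libraries against 2598 CPM in DMSO (-7.20, SE 0.30). Every SMARTer library was high for both, with 13799 and 35676 CPM of Lars2 and 2411 and 2316 CPM of Tmem38b in the SB431542 and E13.5 DMSO libraries. Of 13 protein genes encoded by mitochondrial DNA 2 were called higher and 4 lower (median -0.95), against 0.764% and 3.04% of all tested protein-coding genes. Of these, mt-Co1 had 5090 and 5787 CPM in the SIS3 libraries against 2177 CPM in DMSO (1.32, SE 0.27), with 63.9% of its 31-base words shared with other genes, whereas mt-Nd5 had 463 and 651 CPM in the SIS3 libraries against 1341 CPM in DMSO (-1.27, SE 0.28). The part of the kit in these values was not tested.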

How the data were processed

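RNA-seq of cultured mouse molar tooth germs was analysed from the deposited table of estimated counts per gene, whole numbers that the authors had not scaled between libraries. Tools named in the submitters' processing notes are Salmon, DESeq2, SAMtools, HISAT2 and deepTools, with no role stated, and the build is mm10. How reads were counted was not given in the sources used here. Because Salmon estimates how reads divide among similar transcripts, near-identical genes can exchange counts. Gene types and coordinates came from GENCODE M21 (GRCm38), which lacked 389 of the 35896 IDs.

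Outside SIS3, the paired columns of a group were summed to 1 library. For DMSO at E12.5, SB431542 and DMSO at E13.5, squared differences between columns, over genes with 1 transcript and little shared sequence, were 1.08, 1.03 and 0.987 times the sampling variance, against 17.6 for the SIS3 pair. Genes with 2 to 6 transcripts gave 3.56, 3.01 and 2.41 against 19.9, and genes with 7 or more 4.97, 5.01 and 4.04 against 30.8. The 5 libraries were fitted with edgeR 4.0.16 in R 4.3.3 (TMM, filterByExpr, robust quasi-likelihood F test, Benjamini-Hochberg adjustment over 19022 genes at 0.05). This leaves 1 residual degree of freedom (the SIS3 pair) and 12.5 borrowed ones, and assumes that the lone libraries vary like that pair. The coefficient of variation between libraries, which may be technical, was estimated at 29.3%, with a median 95% confidence half-width of 1.01 on the log2 scale. Single-library ratios used a prior count of 2. Ratios with 1 to 3 counts in the lower group carry a 95% counting interval, which covers counting error only. The analysis was tested on simulated counts.

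The members and the 42 gene lists were chosen with earlier results of these data known. Named genes are the marker genes Trib3, Sesn2, Kdr, Cdh5, Ibsp and Sp7; up to 4 called members per list by adjusted p, and members needed to show a role; the 15 called genes with the largest fold in each direction at 5 CPM or more in the higher group and under 50% shared 31-mers, without predicted, receptor-family and histone genes; the Smad genes; and the 10 genes that differed most between the SIS3 libraries at 20 CPM or more. Further called list members, such as Tek, Smpd3, Col6a1 and Slc7a5, were named after their values were seen. Some values and 1 promoter sequence are not reported here.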

Additional observations from a re-analysis of the deposited data

How the results depend on the processing

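The direction of the 161 called genes followed across settings was the same under each that gave a value. These genes were picked because they were called, and every setting reused the same libraries. All 127 genes called higher and all 506 called lower had the same sign in both SIS3 libraries, so a stable direction says little of robustness. The median of 7 lists of the 42 changed sign: chondrogenic genes (-0.19) under 7 settings, up to 0.48 without SIS3 library 1; Smad2/3 pathway components (0.05), to -0.13 with GC and length trends removed; interferon response genes (-0.09), to 0.09 under that setting and 0.11 without SIS3 library 2; and the FGF, dental epithelium, erythroid and mitosis lists only in 1 SIS3 library taken alone. Protein-coding genes called higher numbered 127, and 193 with DESeq2, 284 with no filter on low counts, 18 at a mean of 5 CPM or more, 50 with the SIS3 and DMSO libraries alone, 2876 with each deposited column as a replicate and 2604 with a replicate block added to that. Those called lower numbered 506, and 397 with DESeq2, 963 with no filter, 90 at 5 CPM, 145 with the 2 groups alone, 3371 by column and 3147 with the block. Distinct list members called higher numbered 31, and 6 at 5 CPM, 16 with the 2 groups alone, 105 by column and 101 with the block. Those called lower numbered 110, and 170 with no filter, 32 at 5 CPM, 42 with the 2 groups alone, 314 by column and 304 with the block. Leaving out either DMSO column gave 117 to 127 higher and 442 to 495 lower, with 30 and 100 to 106 list members. The counts by column treat 2 columns of 1 library as replicates, and replicate numbers did not pair SIS3 with DMSO (correlation of deviations -0.00704). At 5 CPM, 4-fold differences from DMSO numbered 103 higher and 321 lower in SIS3 library 1 and 89 higher and 371 lower in library 2, and library 2 against library 1 gave 74 and 91. With either SIS3 library left out no residual degree of freedom remained, so no test was possible. The cause of these shifts was not tested.

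Genes called higher numbered 51, 47 and 26 among genes of low, middle and high GC content (equal groups), and genes called lower 94, 173 and 238. With 2 SIS3 libraries and 1 DMSO library the median confidence half-width of 1.01 is about a 2-fold change, so a gene that did not pass is not shown to be equal, and with 1 kit on either side no setting separates inhibitor from kit.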

Other observations

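Several called genes outside the lists belong to the tissues or pathways described, and were picked after their values were seen. Odc1, which encodes the first enzyme of polyamine synthesis, had 657 and 403 CPM in the SIS3 libraries against 113 CPM in DMSO, a log2 fold change of 2.23 (SE 0.37). Hspa9, encoding a mitochondrial chaperone, had 977 and 905 CPM in the SIS3 libraries against 262.5 CPM in DMSO (1.84, SE 0.30). Pck2, a mitochondrial enzyme gene whose promoter window also held the letters TGATGNAA, had 151 and 124 CPM in the SIS3 libraries against 53.1 CPM in DMSO (1.37, SE 0.33). Rragd, which encodes a GTPase of the amino acid sensing machinery at the lysosome, had 48.3 and 51.9 CPM in the SIS3 libraries against 10.7 CPM in DMSO (2.23, SE 0.43).

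Among genes called lower, Cavin1, which encodes a coat protein of caveolae, had 28.9 and 36.3 CPM in the SIS3 libraries against 189 CPM in DMSO (-2.53, SE 0.29). Epas1, the hypoxia factor gene enriched in endothelium, had 2.97 and 2.54 CPM in the SIS3 libraries against 28.2 CPM in DMSO (-3.36, SE 0.43), and Nos3, encoding endothelial nitric oxide synthase, had 1.32 and 1.63 CPM in the SIS3 libraries against 13.8 CPM in DMSO (-3.20, SE 0.54). Thbs2, a matrix gene, had 29.4 and 16.2 CPM in the SIS3 libraries against 253 CPM in DMSO (-3.49, SE 0.36). Panx3, a channel gene of osteoblasts and cartilage, had 2.14 and 0.916 CPM in the SIS3 libraries against 23.0 CPM in DMSO (-3.97, SE 0.54).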
